A study of Homo sapiens with 96 samples.

Results

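MANCR is the name that the deposited expression tables give to LINC00704, a long intergenic non-coding RNA. It was picked by its gene name, with earlier results of these data known, and it is 1 gene of 23611 gene names across the 10 tables. All 10 tables list it once, as a lincRNA, so its level was read in each of the 91 libraries that have a column. The libraries come from hTERT-RPE1, a telomerase-immortalised human cell line that was derived from retinal pigment epithelium. Synchrony was set by 22 h in 400 uM mimosine, a plant amino acid that binds iron and stops cells before DNA replication. The groups were as follows. Nascent RNA and input RNA, each from whole cells and from nuclei, were sequenced in 5 windows of synchronised cells (T0-2, T2-4, T4-6, T6-8 and T8-10) and in asynchronous cells, with 2 libraries in each group. Cells given LNA GapmeRs against LINC00704, LUCAT1 or MIAT, at 130 to 150 pmol, or a control LNA, were sequenced at points S0, S2, S4 and S6 after synchronisation, with 2 libraries in each group. Asynchronous cells gave 3 libraries for each knockdown and 2 control libraries. The labels do not state the unit of the window and point numbers. They also do not say whether replicates were grown apart, so each p-value reflects library-to-library spread that may be technical. The same control libraries serve all 3 knockdowns, and every group is the same single cell line.

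Long intergenic non-coding RNAs are transcribed by RNA polymerase II from their own genes and act, where a function is known, as RNA. MANCR takes its name from work in breast cancer cells, where it was described as a mitotically associated long non-coding RNA whose depletion disturbed cell division. LNA GapmeRs are antisense oligonucleotides with a DNA core that recruits RNase H to cut the paired RNA, which allows an RNA to be lowered inside the nucleus. Nascent RNA is RNA made during a short time before collection, while input RNA is the whole pool from which the nascent part was taken.

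RefSeq places MANCR on the minus strand of chromosome 10 at chr10:4650185-4678070 in GRCh38.p14, a span of 27886 bases, and LINC00705 lies within this span at chr10:4656156-4662419. LINC00705 is listed in 0 of the 10 tables, and whether counting used strand is not stated for the fraction tables, so reads of both genes could not be separated there. For the knockdown and control libraries the labels name a strand-specific protocol. The labels of these libraries also carry the words nascent RNA beside total RNA, so whether their values measure new RNA or the whole pool is not settled here. The deposited length of MANCR is 27970 bases, close to its whole RefSeq span, and 75.4% of 14025 genes have a deposited length within 10% of their RefSeq span. The unit, RPKM, is a read count scaled to gene length and library depth, here with the gene span as the length, so levels of genes with long introns read low when their RNA is spliced. The RefSeq promoter, from 250 bases before to 50 bases after the start (chr10:4678021-4678320, minus strand), is shown because the results turn on the output of this gene. The capitals mark 3 matches to motifs searched on both strands.

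MANCR promoter: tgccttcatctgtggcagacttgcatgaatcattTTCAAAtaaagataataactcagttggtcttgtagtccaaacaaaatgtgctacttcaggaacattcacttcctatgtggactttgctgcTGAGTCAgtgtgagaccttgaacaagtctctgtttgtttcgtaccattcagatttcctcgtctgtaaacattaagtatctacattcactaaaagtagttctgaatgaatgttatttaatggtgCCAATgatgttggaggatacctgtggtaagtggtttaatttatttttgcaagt

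The first capitals are the reverse complement of TTTGAA, the element called CHR in genes expressed late in the cell cycle, and begin 216 bases before the start. The next, TGAGTCA, is the reverse complement of the AP-1 motif TGACTCA and begins 126 bases before the start. The last is CCAAT, 3 bases before the start. None of the matches overlaps another. Of 35116 promoters of this length, 15.2% hold TTTGAA, 4.95% hold TGACTCA and 34.6% hold CCAAT on either strand. TATAAA (in 11.5% of promoters), the hypoxia element core ACGTG (21.4%) and the E2F motifs TTGGCGC (3.04%) and TTCGCGC (2.24%) had 0 matches in these letters. The promoter is 36.7% G and C, against a median of 58.7% over all promoters. These matches describe the sequence only.

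MANCR was measured with good depth in all libraries. Reads recovered in genes ran from 6.39 M to 50.5 M a library, and 283 to 5487 reads fell on MANCR. The library sizes by which the RPKM values are scaled, 6.68 M to 53.6 M, are not these totals. The counting error of MANCR, which leaves out all other sources of error, was 1.35 to 5.94% of a value. The spread between replicates was larger than this in most groups. Of 5 markers of epithelium and cultured RPE1 cells, 5 reached 1 RPKM in some library. VIM was at 53.3 to 474 RPKM and KRT18 at 4.63 to 72.6 RPKM. The others were weaker, with KRT8 at 0.917 to 12.1, CDH2 at 0.869 to 7.90 and KRT7 at 0.0927 to 1.87 RPKM. The markers that define differentiated pigment epithelium were mostly low where they were listed. RPE65, the isomerase of the visual cycle, was at no more than 0.224 RPKM in the 3 tables that list it. RLBP1, which carries retinoids, was at no more than 0.516 RPKM in 2 tables. BEST1 reached 0.819 RPKM and SERPINF1 0.764 RPKM. Of 11 such markers, 2 (OTX2 and MITF) reached 1 RPKM in any library, and the summed level of the list was 1.64 to 5.83 RPKM. Of 12 markers of blood, endothelial and other cell types, of which 9 were listed, 1 reached 1 RPKM: HBB, a haemoglobin chain, was at 72.4 RPKM in the replicate 2 library of the T0-2 window of whole-cell nascent RNA and at no more than 6.01 in any other library of the 2 tables that list it. The other 8 listed markers were at no more than 0.431 RPKM where they were listed.

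MANCR was among the more abundant lincRNAs in nuclei. In nuclear nascent RNA it ranked between 268 and 1672 of 20695 genes, and between 6 and 28 of 3011 lincRNAs. In nuclear input RNA it ranked between 274 and 1654 of 16794 genes, and between 7 and 25 of 1578 lincRNAs. Its ranks were lower in whole cells, though still high among lincRNAs. In whole-cell nascent RNA it ranked between 1412 and 3730 of 22295 genes, and between 13 and 63 of 3521 lincRNAs. In whole-cell input RNA it ranked between 2081 and 5553 of 19600 genes, and between 21 and 128 of 2441 lincRNAs. The highest level of the series was 10.4 RPKM, in a nuclear input library of T0-2, and the lowest was 0.484 RPKM, in an asynchronous LINC00704 knockdown library.

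In whole-cell nascent RNA, MANCR was higher in all 10 window libraries than in either asynchronous library. It was at 4.53 and 3.72 RPKM in T0-2, 4.59 and 2.67 in T2-4, 4.01 and 2.68 in T4-6, 5.21 and 3.02 in T6-8, and 4.70 and 3.34 in T8-10, against 1.71 and 1.97 RPKM in asynchronous cells. Replicate 1 was the higher library in each of the 5 windows and the lower one in asynchronous cells. The means were 3.85 ± 0.90 RPKM over the windows (SD, n = 10) and 1.84 ± 0.19 RPKM in asynchronous cells (SD, n = 2), a ratio of 2.09. On the log2(RPKM + 0.25) scale, which is used for all differences here and understates changes of weak genes, the mean of the 5 windows exceeded asynchronous cells by 0.94 ± 0.28 (SE). That difference did not pass the test over 10096 genes (limma adjusted p = 0.193), in which 0.406% of genes were called at an adjusted p under 0.05. For MANCR alone an exact two-sided permutation test gave p = 0.0152, the smallest that 66 arrangements allow, and p = 0.0758 after adjustment over the 10 group comparisons of MANCR described here. Within replicate 1 the difference was 1.30, and within replicate 2 it was 0.57. Without the T0-2 library that held HBB, the difference was 0.97 (limma adjusted p = 0.236).

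The title of the study calls its RNAs enriched in S phase, so the direction of these window differences is not independent evidence. The window cells had been given mimosine and the asynchronous cells had not, so effects of the drug and of cell cycle stage cannot be told apart.

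Among the 5 windows of whole-cell nascent RNA, no difference of MANCR passed the test. Against asynchronous cells the single windows differed by 1.06 (T0-2), 0.85 (T2-4), 0.76 (T4-6), 1.02 (T6-8) and 1.01 (T8-10), each ± 0.37, with limma adjusted p of 0.317 to 0.585. These tests called 0.0198% (T0-2), 0.0297% (T2-4), 0.0396% (T4-6), 0.0099% (T6-8) and 0.0099% (T8-10) of genes. Window means ran from 3.34 RPKM in T4-6 to 4.13 RPKM in T0-2, and neighbours in this order overlapped (T0-2, T6-8, T8-10, T2-4, T4-6), while the gap between T4-6 and asynchronous cells did not. The moderated F-test among windows gave an adjusted p of 1, with 0 genes called (0%) and 313 of 10096 at an unadjusted p under 0.05. T8-10 differed from T0-2 by -0.05 ± 0.37 (95% interval -0.86 to 0.77), with 0 genes called. The sign of this small difference turned to 0.09 without replicate 1 of T0-2 and to 0.18 without replicate 2 of T8-10.

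In whole-cell input RNA the windows overlapped the asynchronous cells. MANCR was at 3.25 and 2.36 RPKM in T0-2, 2.89 and 1.02 in T2-4, 3.25 and 1.45 in T4-6, 2.92 and 1.33 in T6-8, and 3.80 and 1.50 in T8-10, against 1.66 and 1.92 RPKM in asynchronous cells. All 5 replicate 1 windows and 1 of the replicate 2 windows, T0-2, lay above both asynchronous libraries, and the other 4 lay below both. The means were 2.38 ± 0.98 RPKM in windows (SD, n = 10) and 1.79 ± 0.19 RPKM in asynchronous cells (SD, n = 2). The difference was 0.27 ± 0.48 (limma adjusted p = 0.999, with 0.0305% of 9825 genes called; exact permutation p = 0.545 for MANCR alone). It was 0.86 within replicate 1 and -0.33 within replicate 2, so the direction did not hold within replicate numbers. By window it ran from -0.03 (T2-4) to 0.57 (T0-2), each ± 0.62, in tests that called 0.0102% of genes for T0-2 and T2-4 and 0 genes for the other 3. T8-10 minus T0-2 was -0.18 ± 0.62 (0 of 9825 genes called, 380 at an unadjusted p under 0.05), and it turned to 0.03 without replicate 1 of T0-2 and to 0.42 without replicate 2 of T8-10.

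**Figure D1:**
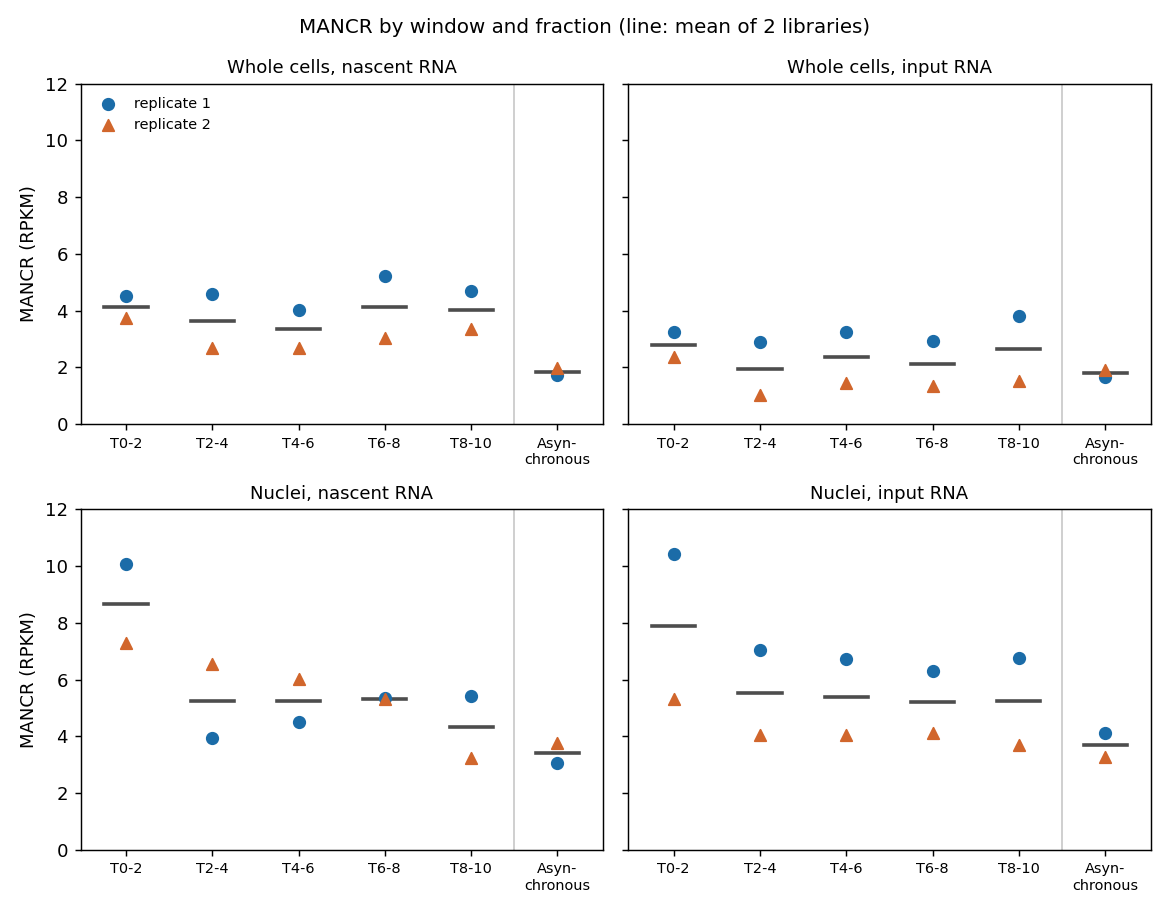
MANCR in RPKM (linear axis from 0) in every library of the 4 fraction tables, by window and then in asynchronous cells; circles are replicate 1, triangles replicate 2, and lines the mean of both. T0-2 stands highest in nuclei, at 7.28 and 10.1 RPKM in nascent RNA, and replicate 1 lies above replicate 2 in each window of whole-cell RNA and of nuclear input RNA.

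In nuclear nascent RNA the T0-2 window stood above all other groups. MANCR was at 10.1 and 7.28 RPKM in T0-2, 3.94 and 6.54 in T2-4, 4.49 and 6.01 in T4-6, 5.34 and 5.31 in T6-8, and 5.41 and 3.25 in T8-10, against 3.05 and 3.77 RPKM in asynchronous cells. Both T0-2 libraries were above every other library of the table. Of the 10 window libraries, 9 lay above both asynchronous libraries, the exception being replicate 2 of T8-10. The means were 5.76 ± 1.92 RPKM in windows (SD, n = 10) and 3.41 ± 0.51 RPKM in asynchronous cells (SD, n = 2), and the difference was 0.66 ± 0.26. It did not pass over 9784 genes (limma adjusted p = 0.182), of which 4.5% were called. The exact permutation p for MANCR alone was 0.0758 before and 0.25 after adjustment over the 10 group comparisons. The difference was 0.81 within replicate 1 and 0.52 within replicate 2.

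Window by window, the nuclear nascent difference from asynchronous cells was 1.28 ± 0.33 in T0-2 (limma adjusted p = 0.0687), a ratio of means of 2.55. It was 0.55 ± 0.33 in T2-4, 0.58 ± 0.33 in T4-6, 0.62 ± 0.33 in T6-8 and 0.29 ± 0.33 in T8-10, and none of these passed. In this order the tests called 3.37%, 1.99%, 1.25%, 0.572% and 0.266% of genes. T8-10 minus T0-2 was -0.99 ± 0.33, which missed the threshold (adjusted p = 0.159, with 0.358% of genes called), at -0.87 within replicate 1 and -1.11 within replicate 2. Of 413 lincRNAs tested, 385 had a higher value of this difference. The order of means was T0-2, T6-8, T4-6, T2-4, T8-10 and asynchronous. Only the first step, between T0-2 and T6-8, had ranges that did not overlap, and the F-test among windows did not pass (adjusted p = 0.608, with 0.0204% of genes called).

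In nuclear input RNA replicate 1 was above replicate 2 in every group. The RPKM summed over all genes differed too, at 29706 to 39948 in replicate 1 libraries and 71597 to 137910 in replicate 2 libraries. Whether this bears on the MANCR level was not tested. MANCR was at 10.4 and 5.30 RPKM in T0-2, 7.04 and 4.05 in T2-4, 6.71 and 4.05 in T4-6, 6.29 and 4.11 in T6-8, and 6.78 and 3.71 in T8-10, against 4.11 and 3.29 RPKM in asynchronous cells. Each window lay above the asynchronous library of its own replicate number, and 7 of 10 lay above both. The means were 5.85 ± 2.07 RPKM in windows (SD, n = 10) and 3.70 ± 0.58 RPKM in asynchronous cells (SD, n = 2). The difference of 0.57 ± 0.35 did not pass without regard to replicate number (limma adjusted p = 0.443, with 4.57% of 9633 genes called; exact permutation p = 0.136 for MANCR alone). Here the replicate numbers pair the libraries, and with the replicate as a block the same difference passed (adjusted p = 0.00738), in a fit that called 34.4% of genes. It was 0.80 within replicate 1 and 0.34 within replicate 2.

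Single nuclear input windows differed from asynchronous cells by 0.97 (T0-2), 0.51 (T2-4), 0.48 (T4-6), 0.44 (T6-8) and 0.43 (T8-10), each ± 0.45. None of these passed in the fit without the block, in tests that called 3.71%, 2.7%, 1.09%, 0.882% and 0.197% of genes in this order. With the replicate as a block, an alternative chosen after seeing the data, the same differences had an SE of 0.16. T0-2 (limma adjusted p = 0.00209) and T2-4 (0.0347) then passed, and T4-6 (0.0617), T6-8 (0.0733) and T8-10 (0.0996) did not. The blocked tests called 35.8%, 32.7%, 20.3%, 21.7% and 14.7% of genes in this order. T8-10 minus T0-2 was -0.55 ± 0.45 (adjusted p = 0.71, with 0.415% of genes called), at -0.61 within replicate 1 and -0.49 within replicate 2. With the replicate as a block it passed (adjusted p = 0.0375), in a fit that called 22.2% of genes. The value ranged from -1.02 to -0.07 when single libraries were left out without the block, and the library that brought it to -0.07 was replicate 1 of T0-2, the highest of the table. The order of means was T0-2, T2-4, T4-6, T8-10, T6-8 and asynchronous, with ranges of neighbours overlapping in all steps but the last. The F-test among windows without the block gave an adjusted p of 1, with 0.218% of genes called.

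The level of MANCR was higher in the nuclear than in the whole-cell tables. The tables were scaled each on its own, so the ratios between them are given as places among genes, with no test. In input RNA, MANCR had 7.87 RPKM in nuclei and 2.80 RPKM in whole cells in T0-2, and 3.70 RPKM in nuclei and 1.79 RPKM in whole cells in asynchronous cells. Over the 6 groups its log2 ratio of nuclei to whole cells was 0.95 to 1.49, above 97.7 to 99.4% of 8948 genes, whose medians were -0.16 to -0.01. Among 264 lincRNAs it was above 88.6 to 95.1%. In nascent RNA the ratio was 0.08 to 1.02, above 65.2 to 97.6% of 8956 genes, and was lowest in T8-10.

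The ratio of nascent to input RNA differed between whole cells and nuclei. In whole cells the log2 ratio was 0.53 to 0.92 in the windows, above 90.9 to 98.8% of 9134 genes, and 0.04 in asynchronous cells, above 68.3%. In nuclei it was 0.19 in T0-2, above 85.7% of 9297 genes, and -0.25 in T8-10, above 11.2%, with -0.11 in asynchronous cells. These are descriptions of 2 libraries a group, and no test of a ratio was made across tables.

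The LINC00704 knockdown was read in MANCR itself, which checks the labels. In synchronised cells MANCR was lower in all 8 knockdown libraries than in all 8 control libraries. It was at 1.61 and 0.865 RPKM at S0 in knockdown cells, against 4.04 and 3.79 RPKM in control cells. At S2 it was at 0.550 and 0.903 RPKM in knockdown cells, against 2.78 and 3.29 RPKM in control cells. At S4 the values were 0.864 and 0.649 RPKM in knockdown cells and 1.89 and 3.61 RPKM in control cells, and at S6 they were 1.17 and 0.974 RPKM in knockdown cells and 2.41 and 3.19 RPKM in control cells. The highest knockdown library, at 1.61 RPKM, was below the lowest control library, at 1.89 RPKM. The means were 0.948 ± 0.327 RPKM in knockdown and 3.13 ± 0.73 RPKM in control cells (SD, n = 8 each), so 30.3% of the control level remained.

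MANCR fell by 1.51 ± 0.16 on the log2 scale in synchronised knockdown cells (limma adjusted p = 0.00256). It had the smallest p of 9442 genes, of which 2 (0.0212%) were called, and the lowest value of 334 lincRNAs. The exact two-sided permutation test on MANCR alone gave p = 0.000155, the smallest that 12870 arrangements allow, and 0.00155 after adjustment over 10 comparisons. Leaving out any 1 of the 16 libraries left the difference between -1.61 and -1.40, with adjusted p of 0.000932 to 0.0182. By point, the level in knockdown cells was 31.5% of control at S0, 23.9% at S2, 27.5% at S4 and 38.3% at S6. The differences were -1.53, -1.77, -1.52 and -1.20, each ± 0.32, and at single points no gene passed (0 of 9442), the MANCR p-values being 8.25e-05 to 0.00225 before adjustment. The differences among points did not pass (limma F-test adjusted p = 1, with 0 genes called and 37 at an unadjusted p under 0.05).

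The other gene called in this comparison was AL158212.3, which the files class as a sense overlapping transcript and which is named because the count is so small. It was at 0.592 to 1.19 RPKM in LINC00704 knockdown cells, against 1.52 to 2.38 RPKM in control cells. LUCAT1 knockdown cells, set against the same control libraries, had 0.452 to 1.24 RPKM of it, and MIAT knockdown cells 1.31 to 2.63 RPKM. The LUCAT1 knockdown libraries thus lay below the control libraries too. The count of genes called in the LINC00704 comparison was 1 to 3 in 15 of the 16 fits that left out a library. Without the S0 knockdown library whose column is numbered 3, it was 1035, so the number of calls depends on that library.

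**Figure D2:**
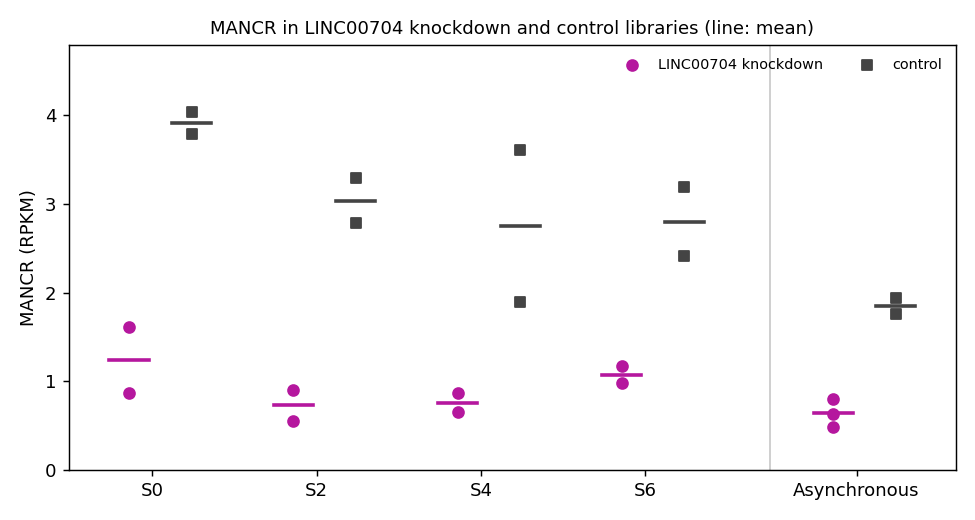
MANCR in RPKM (linear axis from 0) in LINC00704 knockdown libraries (circles) and control libraries (squares) at S0, S2, S4 and S6 and in asynchronous cells; lines are group means. Knockdown libraries sit at 0.484 to 1.61 RPKM and control libraries at 1.76 to 4.04 RPKM, with no overlap within a point.

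In asynchronous cells the knockdown left 34.3% of the control level. MANCR was at 0.484, 0.628 and 0.793 RPKM in LINC00704 knockdown cells, against 1.76 and 1.94 RPKM in control cells, from 619, 640 and 659 reads in knockdown libraries and 1960 and 1372 reads in control libraries. The groups did not overlap. The difference was -1.26 ± 0.18 (95% interval -1.69 to -0.83), the lowest of 139 lincRNAs, but it did not pass over 8975 genes (limma adjusted p = 0.0956), of which 0.0557% were called. Without knockdown replicate 3 it was -1.39 and passed (adjusted p = 0.032), while the other 4 fits that left out a library gave adjusted p of 0.12 to 0.548. With 3 against 2 libraries the exact permutation test cannot give less than p = 0.1, which is what it gave. The authors' deposited table gives a log2 fold change of -1.41 with an FDR of 0.000265 for the same gene.

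In control cells MANCR was highest at S0, with 4.04 and 3.79 RPKM, and both S0 libraries lay above all other control libraries. S6 differed from S0 by -0.46 ± 0.32 (limma adjusted p = 0.832, with 0.0741% of genes called), and the F-test over the 4 control points did not pass (adjusted p = 0.999, with 0 genes called and 478 at an unadjusted p under 0.05). The order of control means was S0, S2, S6 and S4, at 3.92, 3.04, 2.80 and 2.75 RPKM. The ranges of S0 and S2 did not overlap, while those of S2, S6 and S4 did.

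In knockdowns of the other targeted lincRNAs no difference of MANCR passed the test. In synchronised LUCAT1 knockdown cells MANCR was at 4.04 and 2.47 RPKM at S0, 3.03 and 3.32 at S2, 1.56 and 2.69 at S4, and 1.84 and 1.78 at S6. At S6 both libraries were below both control libraries, and at the other points the ranges overlapped those of the control. The difference over 4 points was -0.27 ± 0.16 (95% interval -0.63 to 0.08, limma adjusted p = 0.221), in a comparison that called 27.2% of 9870 genes. The exact permutation p was 0.181. By point the differences were -0.29 (S0), 0.06 (S2), -0.32 (S4) and -0.56 (S6), each ± 0.33, in tests that called 0.0507%, 0.0203%, 0.101% and 0.0304% of genes in this order. In asynchronous cells MANCR was at 1.37, 3.23 and 2.14 RPKM after LUCAT1 knockdown, against 1.81 and 2.02 RPKM in control cells, a difference of 0.14 ± 0.33 (adjusted p = 0.807, with 0.209% of genes called). It turned to -0.14 without knockdown replicate 2.

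In synchronised MIAT knockdown cells MANCR was at 3.14 and 4.30 RPKM at S0, 2.02 and 4.24 at S2, 1.35 and 3.80 at S4, and 3.14 and 1.04 at S6. These libraries spread more widely than the control libraries at every point. The difference was -0.21 ± 0.26 (95% interval -0.77 to 0.35, limma adjusted p = 0.65), with 7.63% of 9528 genes called, and the exact permutation p was 0.462. By point they were -0.08 (S0), -0.04 (S2), -0.18 (S4) and -0.54 (S6), each ± 0.52, in tests that called 0%, 0.0105%, 0% and 1.35% of genes in this order. In asynchronous cells MANCR was at 1.74, 2.88 and 2.90 RPKM after MIAT knockdown, against 1.75 and 1.95 RPKM in control cells. Of these, 2 of 3 lay above both control libraries and the other below both. The difference of 0.37 ± 0.20 did not pass (adjusted p = 0.185, with 43.7% of 9200 genes called), and without knockdown replicate 1 it was 0.59 with an adjusted p of 0.00333. The authors' deposited table gives a log2 fold change of 0.42 with an FDR of 4.2e-06.

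**Figure D3:**
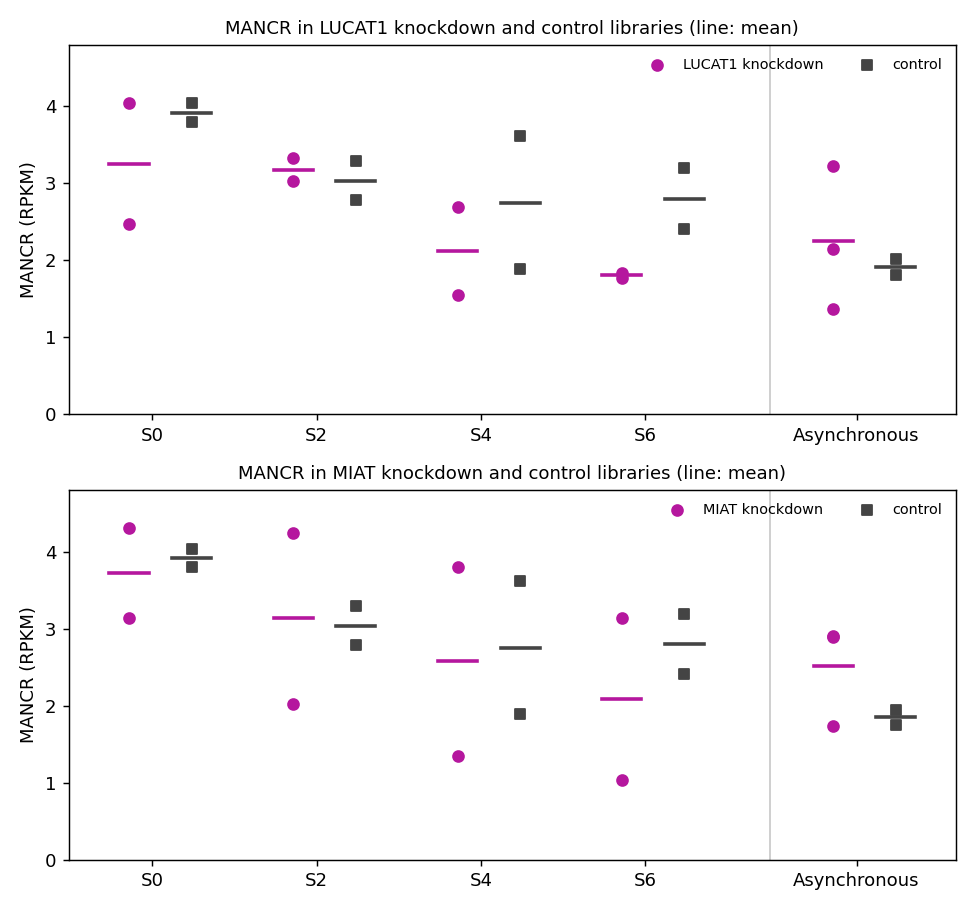
MANCR in RPKM (linear axis from 0) in LUCAT1 knockdown (top) and MIAT knockdown (bottom) libraries as circles, beside the control libraries they share as squares; lines are group means. The ranges overlap at every point except S6 of LUCAT1 knockdown, where 1.78 and 1.84 RPKM lie below the control libraries at 2.41 and 3.19 RPKM.

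LUCAT1, a lincRNA named from work on lung cancer, had higher values in LINC00704 knockdown cells without passing the test. At S0 it was at 1.35 and 0.894 RPKM in knockdown cells, against 0.994 and 0.798 RPKM in control cells, and at S2 at 1.72 and 0.943 RPKM in knockdown cells, against 0.671 and 0.659 RPKM in control cells. At S4 it was at 1.29 and 1.12 RPKM in knockdown cells, against 0.440 and 0.678 RPKM in control cells, and at S6 at 1.14 and 0.977 RPKM in knockdown cells, against 0.856 and 0.646 RPKM in control cells. The ranges overlapped at S0 and at no later point. The difference was 0.56 ± 0.13 (limma adjusted p = 0.265). In asynchronous cells it was at 1.07, 0.784 and 0.802 RPKM in knockdown cells, against 0.455 and 0.477 RPKM in control cells, a difference of 0.66 ± 0.16 (limma adjusted p = 0.197). In asynchronous MIAT knockdown cells, set against the same control libraries, LUCAT1 was also above both, at 0.670 to 0.834 RPKM, and in synchronised MIAT knockdown cells it was at 0.414 to 1.22 RPKM. MIAT, named from work on myocardial infarction, was at no more than 0.434 RPKM in these libraries and did not pass the filter on low values.

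**Figure D4:**
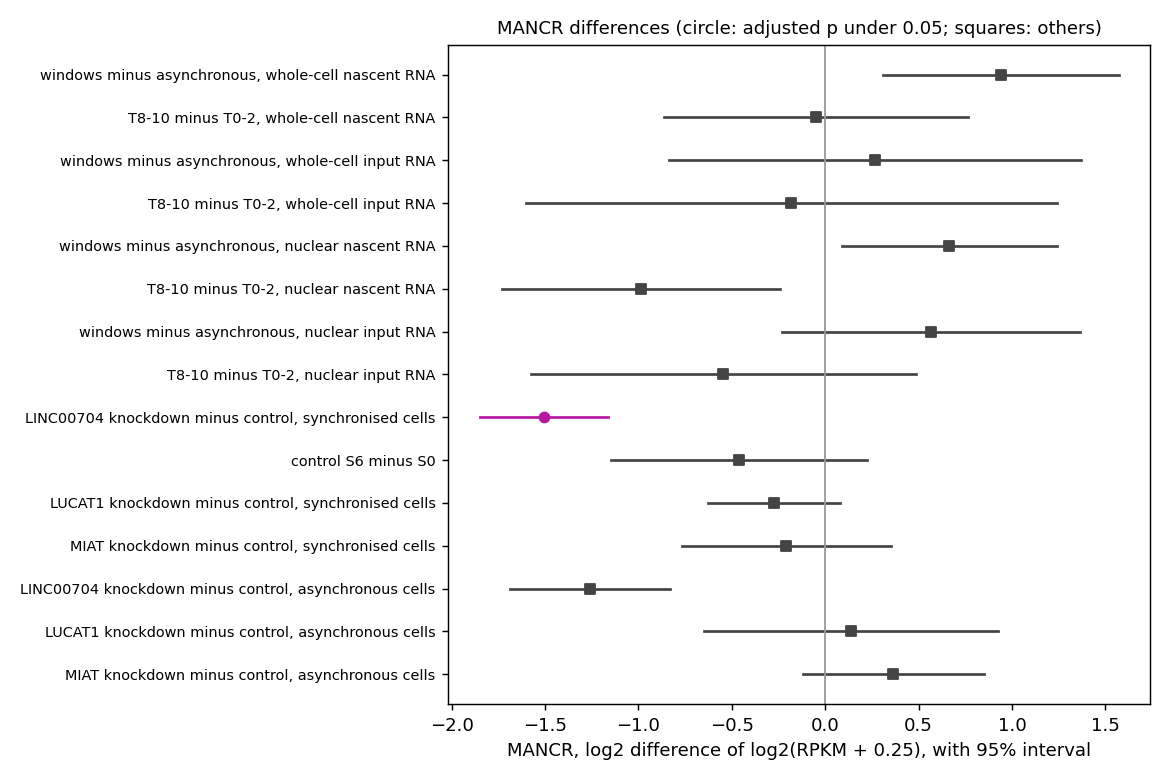
Log2 differences of MANCR on the log2(RPKM + 0.25) scale with 95% intervals from limma, 1 line for each comparison, each read as the first named group minus the second. The LINC00704 knockdown in synchronised cells, at -1.51, is the one drawn as a circle (adjusted p under 0.05), and the asynchronous knockdown at -1.26 is a square.

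The 4 tested neighbours of MANCR, all 734 kb or more away, did not pass the test in either LINC00704 knockdown comparison. Closer genes, among them LINC00705 within the span, AKR1E2 at 147 kb and LINC00703 at 240 kb, were not listed or did not pass the filter. They were therefore not tested. Of 17 neighbours on chromosome 10, 4 passed the filter on low values (0.5 RPKM or more in 2 or more libraries) in each table, and 0 of 4 were called in synchronised (0.0212% of all genes) and in asynchronous cells (0.0557%). KLF6, a zinc finger transcription factor whose gene lies 865 kb away, differed by 0.03 ± 0.16 in synchronised knockdown cells, at 11.2 to 28.4 RPKM in knockdown libraries and 11.8 to 25.2 RPKM in control libraries. NET1, whose gene lies 734 kb away, differed by 0.20 ± 0.14. ASB13, a substrate adaptor of a ubiquitin ligase whose gene lies 961 kb away, differed by 0.25 ± 0.16. PFKP, a phosphofructokinase of glycolysis whose gene lies 1513 kb away, differed by -0.38 ± 0.18 (limma adjusted p = 0.31). In asynchronous cells PFKP was at 7.55, 5.88 and 5.60 RPKM in knockdown libraries, against 9.20 and 8.85 RPKM in control libraries, a difference of -0.50 ± 0.18 (limma adjusted p = 0.337). PFKP was also below the same control libraries in asynchronous LUCAT1 knockdown cells (3.86 to 6.85 RPKM) and MIAT knockdown cells (5.33 to 5.88 RPKM).

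The lists of cell cycle genes had 0 members called in either comparison. Of 30 mitosis and cytokinesis genes, 30 were tested in synchronised and 29 in asynchronous cells. At an unadjusted p under 0.05, 5 of 30 were lower in synchronised knockdown cells, where 4.35% of all genes were, and 6 of 29 were lower in asynchronous knockdown cells, where 10% of all genes were. These counts depend on single libraries, as does the share of all genes past this p in either direction, 12.4% in the asynchronous fit. In synchronised cells the median of the list ran from -0.10 to 0.01 when 1 library was left out. The asynchronous count was 5 without knockdown replicate 1, where 20.9% of all genes were past this p in either direction. The count was 2 without replicate 2 (10.9%) and 10 without replicate 3 (15.7%). It was 1 with quantile normalization (8.77%) and 3 with median scaling (10.2%). Without control replicate 1 or 2, which leaves 1 control library, the median of the list was -0.28 or -0.05. CIT, the citron kinase of the cleavage furrow, had the smallest p of this list in asynchronous cells and is named after its values were seen. It was at 0.741, 0.728 and 0.747 RPKM in knockdown libraries, against 1.31 and 1.36 RPKM in control libraries. That difference was -0.68 ± 0.13 (limma adjusted p = 0.155), and in synchronised cells it was -0.40 ± 0.14 (adjusted p = 0.269). The median of the list was -0.16 in asynchronous cells, against -0.07 over all genes, and -0.04 in synchronised cells, against 0.05 over all genes.

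Genes of DNA replication and the G1/S step had lower values in asynchronous knockdown cells without any passing the test over all genes. Of 23 members, 21 were tested in each comparison. At an unadjusted p under 0.05, 10 of 21 were lower in asynchronous cells, where 10% of all genes were, and 0 were higher. In that fit 12.4% of all genes were past this p in either direction. The count of 10 was 12 without knockdown replicate 1, where 20.9% of all genes were past this p in either direction. The count was 7 without replicate 2 (10.9%) and 10 without replicate 3 (15.7%). It was 5 with quantile normalization (8.77%) and 7 with median scaling (10.2%). Without control replicate 1 or 2, which leaves 1 control library, the median of the list was -0.45 or -0.40. The median difference of the list was -0.43, against -0.07 over all genes. CDT1, a loading factor of the replicative helicase named after its values were seen, was at 6.52, 7.18 and 6.01 RPKM in knockdown libraries, against 11.6 and 10.4 RPKM in control libraries, a difference of -0.72 ± 0.17 (limma adjusted p = 0.184). MCM2, a subunit of that helicase, is also named after its values were seen. It was at 12.3, 9.76 and 8.51 RPKM in knockdown libraries, against 16.5 and 15.5 RPKM in control libraries. In synchronised cells 3 of 21 were lower at an unadjusted p under 0.05, where 4.35% of all genes were. The median was -0.18, against 0.05 over all genes. Without the S0 knockdown library whose column is numbered 3, the median was -0.22, against 0.06 over all genes.

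The p53 targets stood on the other side of zero in asynchronous cells. Of 17 members, 12 were tested there and 15 in synchronised cells. At an unadjusted p under 0.05, 6 of 12 were higher in asynchronous knockdown cells, where 2.4% of all genes were, and 0 were lower, with a median of 0.43, against -0.07 over all genes. At this p, in either direction, the share of all genes was 12.4%. The count of 6 was 7 without knockdown replicate 1, where 20.9% of all genes were past this p in either direction. The count was 4 without replicate 2 (10.9%) and 8 without replicate 3 (15.7%). Without control replicate 1 or 2, which leaves 1 control library, the median of the list was 0.42 or 0.55. CDKN1A, the inhibitor of cyclin-dependent kinases, was at 50.9, 62.9 and 46.6 RPKM in knockdown libraries, against 35.0 and 31.8 RPKM in control libraries, a difference of 0.66 ± 0.18 (limma adjusted p = 0.227). BTG2, an antiproliferative factor, was at 4.19, 5.91 and 4.22 RPKM in knockdown libraries, against 2.63 and 2.23 RPKM in control libraries, a difference of 0.89 ± 0.20 (limma adjusted p = 0.181). Both are named after their values were seen. In synchronised cells 0 of 15 were past an unadjusted p of 0.05, where 16.5% of all genes were. The median there was -0.03, at -0.08 to 0.04 when 1 library was left out. The difference between synchronised and asynchronous cells was not tested. The asynchronous knockdown libraries share their 2 control libraries with the other knockdowns.

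The 5 genes called in asynchronous LINC00704 knockdown cells were all higher and did not include MANCR. They were APOL1, SLC22A14, DCAF4L1, ASS1P5 and AC005696.3, named here because the count is so small. APOL1, a secreted apolipoprotein, was at 1.41, 1.31 and 1.30 RPKM in knockdown libraries, against 0.225 and 0.180 RPKM in control libraries. AC005696.3 was at 7.89, 10.1 and 4.76 RPKM in knockdown libraries, against 0.721 and 0.811 RPKM in control libraries. Without knockdown replicate 3 the count was 43 genes, and without any other single library, control replicates included, it was 0.

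Across the 48 fraction libraries, EFL1 was the gene whose profile was most like that of MANCR. The measure was Pearson's r of log2 values centred on each table, over the 8490 genes that passed the filter on low values in all 4 tables, given as a description with no p. The 8 highest were EFL1 (0.93), FAP (0.90), ABHD5 (0.89), FGFR1OP2 (0.88), ARHGAP5 (0.88), ASCC3 (0.88), GBE1 (0.87) and ADGRG6 (0.87). The median over all genes was -0.02 and the 95th percentile was 0.73. EFL1 is a GTPase of ribosome assembly, FAP a cell surface protease of activated fibroblasts, ABHD5 a co-activator of fat breakdown, ASCC3 a helicase, GBE1 the glycogen branching enzyme and ADGRG6 an adhesion receptor. The points share libraries, depth and replicate number, and the tables share their windows. With the mean of each replicate number in each table taken out, r was 0.81 to 0.91 for these 8 genes, and over the 24 group means it was 0.83 to 0.95. Both measures reuse the libraries by which the 8 genes were picked, so they are not separate evidence. Of the neighbours, NET1 had 0.80, KLF6 0.63 and PFKP -0.11, and LUCAT1 had 0.53.

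The knockdown values of these genes are set beside that of MANCR with no test of likeness. In synchronised LINC00704 knockdown cells, where MANCR had -1.51, the 8 genes had differences of -0.02 (EFL1) to 0.46 (ARHGAP5). In asynchronous knockdown cells, where MANCR had -1.26, they had differences of -0.39 (FAP) to 0.35 (ARHGAP5).

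**Figure D5:**
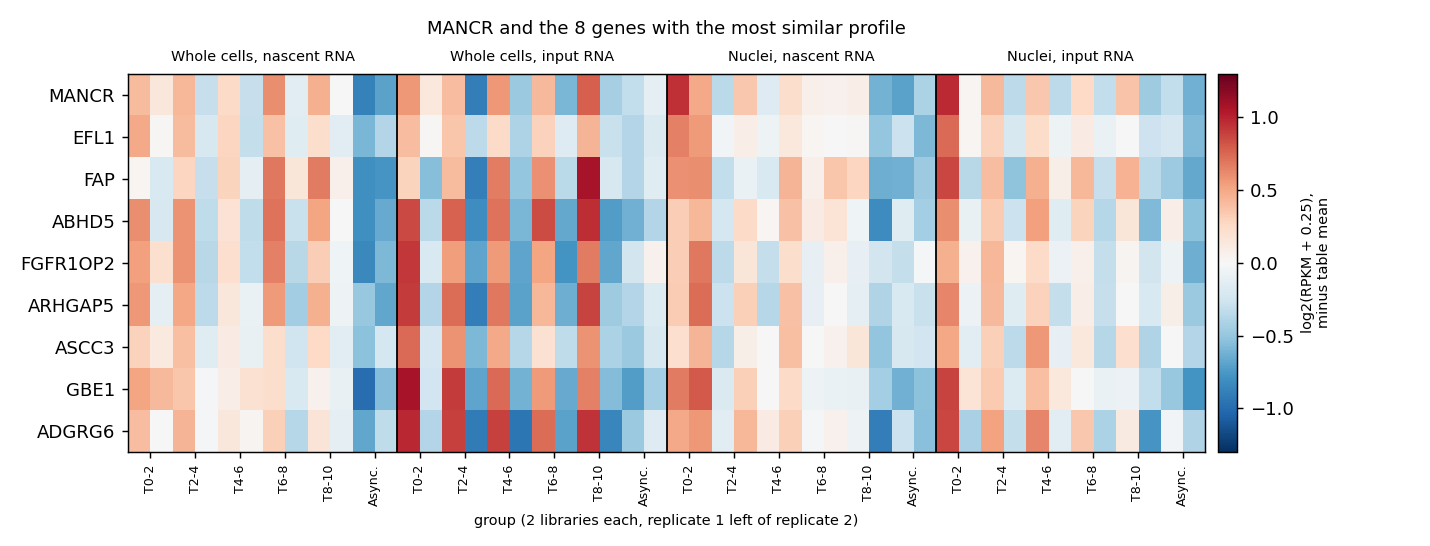
MANCR and the 8 genes most like it, as log2(RPKM + 0.25) minus the mean of the table, in the 48 fraction libraries ordered by fraction, then window, with asynchronous cells last. In all 9 rows the T0-2 libraries of nuclear nascent RNA lie above the table mean and the asynchronous libraries of whole-cell nascent RNA lie below it.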

How the data were processed

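The authors deposited RPKM values per gene and library in 10 tables. Per the file headers, 4 hold fraction libraries and 6 hold knockdown and control libraries. STAR 2.5.3, featureCounts 1.6.1, edgeR, HOMER 4.10.3 and Bowtie2 2.3.4.3, with build hg38, are named in the submitters' processing notes, without roles. Some tables also hold the authors' log2 fold changes, and 3 hold p-values and FDRs, per the file headers. The tables were scaled separately, so tests stayed within a table.

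RPKM times length gave whole reads for at least 99.97% of values checked (up to 200 reads, tolerance 0.05), from which MANCR reads and library sizes were taken. Differences were fitted with limma 3.58.1 (R 4.3.3) on log2(RPKM + 0.25), keeping a gene if 2 or more libraries of its table reached 0.5 RPKM, with a mean trend and Benjamini-Hochberg adjustment over all genes tested, and called under an adjusted p of 0.05. Fits were tested on simulated data. No count model was run on the recovered reads. The window contrast averaged the 5 windows and subtracted asynchronous cells, and the knockdown contrast averaged the 4 points. Permutation tests on MANCR were exact and two-sided. Figures used Python 3.11.15 and matplotlib 3.10.9.

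Replicate numbers were taken to pair libraries where every pair of groups had deviations correlated above 0.1. This held in nuclear input RNA (15 of 15 pairs, r of 0.63 to 0.86) and in no other table with 3 or more pairs.

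MANCR, the gene lists and the tests were chosen with earlier results of these data known. Named genes were MANCR, the other targets, neighbours, at most 4 called members of a list, and the 8 most similar genes. Other genes were named after their values were seen, as stated beside them. The 5 chromatin samples were not analysed here. Promoter sequence is from RefSeq (GRCh38.p14).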

Additional observations from a re-analysis of the deposited data

How the results depend on the processing

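The difference of MANCR in LINC00704 knockdown of synchronised cells stayed past the threshold under pseudocounts of 0.1 and 1, no filter, a filter of 1 RPKM, quantile normalization and median scaling. Under those settings, and for the control points also with the libraries as scaled in the other 2 tables, no other result for MANCR crossed the threshold or changed direction. With the replicate block, and leaving single windows aside, 3 more differences of MANCR passed beside that of asynchronous LINC00704 knockdown. These were whole-cell nascent windows (0.94, adjusted p = 0.0479), nuclear input windows (0.57, adjusted p = 0.00738) and nuclear input T8-10 minus T0-2 (-0.55, adjusted p = 0.0375). In asynchronous LINC00704 knockdown the block gave -1.39 (adjusted p = 0.0211) with 153 genes called in place of 5, and 1 called p53 target in place of 0. The rule for pairing, every pair of groups above 0.1, was met in nuclear input RNA. In whole cells 10 of 15 pairs were above 0.1 for input RNA (median r 0.90, lowest -0.56) and 11 of 15 for nascent RNA (median 0.42, lowest -0.27), and in nuclei 10 of 15 for nascent RNA (median 0.20, lowest -0.31), so numbers go together in part there without meeting the rule. The asynchronous tables have 1 pair each (0.33, 0.32 and 0.14). A replicate block could not be fitted for knockdowns of synchronised cells, whose columns carry other numbers than the sample titles.

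Leaving out 1 library at a time moved the asynchronous LINC00704 knockdown between -1.39 and -1.13, LUCAT1 knockdown between -0.14 and 0.41, and MIAT knockdown between 0.25 and 0.59. It moved T8-10 minus T0-2 between -0.79 and 0.42 in whole-cell input and between -0.28 and 0.18 in whole-cell nascent RNA. The median of the replication and G1/S genes in synchronised knockdown cells moved between -0.23 and -0.14. Among all genes, the asynchronous LINC00704 comparison called 1 gene with a pseudocount of 1, a filter of 1 RPKM or quantile normalization, 9 with a pseudocount of 0.1 and 0 with no filter, where 1929 had an unadjusted p under 0.05. The causes were not tested. With 2 libraries a group, the 95% intervals of MANCR differences within fractions are wide, and a difference that missed the threshold is not shown to be absent.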
